A study of Arabidopsis thaliana with 6 samples.

Results

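The 200 Arabidopsis thaliana loci with the strongest isoform switches after exposure to N-linolenoylethanolamine (NAE 18:3) are described here, out of 32424 loci in the deposited table. An isoform switch was read from the share of a locus that each of its transcripts held, that is, the transcript's FPKM divided by the FPKM of the whole locus in the same library. FPKM counts fragments scaled to the length of the transcript and to the mapped fragments of the library. Loci with 1 TAIR gene, at least 2 assembled transcripts and a mean of at least 10 FPKM in each group were considered, which left 4184 eligible loci. In 2013 of them at least 1 transcript had all 3 shares of 1 group above all 3 of the other, which is 48.1% of eligible loci. The 200 with the largest difference between group mean shares were kept. Because the shares chose the loci, the share values are a description and carry no test.

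Whole seedlings of the wild-type accession Col-0 were used in both groups, and no mutant or transgene was involved. They were moved from sucrose-containing plates to liquid medium with sucrose, which held either DMSO at 0.07% as the solvent control or NAE 18:3 at 100 µM, and were harvested after 1 h. NAE 18:3 is the ethanolamine amide of linolenic acid. The DMSO content of the NAE 18:3 medium is not given in the labels. The age of the seedlings is 4 days in the age label and 3 days in the growth text. Each group had 3 libraries of total RNA that the labels call biological replicates.

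Most plant genes with introns can give more than one mature mRNA, through the choice of splice sites, the retention of an intron or the use of another start or end of transcription. The choice of splice sites is set by the spliceosome and by regulators such as the serine/arginine-rich (SR) proteins, which bind exons and recruit it, and SR genes are themselves among the most strongly alternatively spliced plant genes. In seedlings, light, sugar and the circadian clock are known to shift splicing, and an isoform may change the protein, the untranslated leader or the life of the mRNA.

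Absolute sequencing depth is unknown, since FPKM is scaled to each library. At loci under 0.3 FPKM, the steps between low values gave relative depths of 0.482 to 0.968 for DMSO and 0.987 to 1.27 for NAE 18:3, with NAE 18:3 replicate 1 set to 1, but outside that library only 24% to 29.9% of those loci lay on the common step. The groups also differed in markers of tissues. Summed FPKM of 5 genes of green cotyledons was 25315 to 26521 in DMSO and 51479 to 54497 after NAE 18:3, that of 5 root genes was 108 to 122 and 33.7 to 37.5, and that of 2 seed storage genes was 45.1 to 73.7 and 0.754 to 1.09. The 2 flower genes summed to at most 0.269 FPKM. In whole seedlings, fewer cells of a type and less RNA per cell cannot be told apart, and the part of tissue make-up in the switches was not tested.

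The switches ranged from 27.5 to 100 percentage points, with a median of 32.6 and quartiles of 29.9 and 37.4 points. In what follows the leading transcript of a locus is the one whose share differed most, and its partner is the one with the largest opposite difference. The leading transcript gained share after NAE 18:3 in 116 loci and lost it in 84. In a locus with 2 transcripts the shares mirror each other, so that direction is arbitrary there. A difference of at least 50 points was reached in 13 loci and of at least 40 points in 34. The most abundant transcript of the locus changed in 98 of the 200, and in 254 of the 3984 other eligible loci. In 54 loci the leading transcript held over 50% of the locus in every library of 1 group and under 50% in every library of the other. The gap between the nearest libraries of the groups had a median of 22.9 points and a minimum of 0.225 points. The SD of the leading share within a group had a median of 5.61 points in DMSO and 4.19 points after NAE 18:3. In the other eligible loci the transcript with the largest difference had lower medians, 3.51 points in DMSO and 2.30 points after NAE 18:3.

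**Figure D1:**
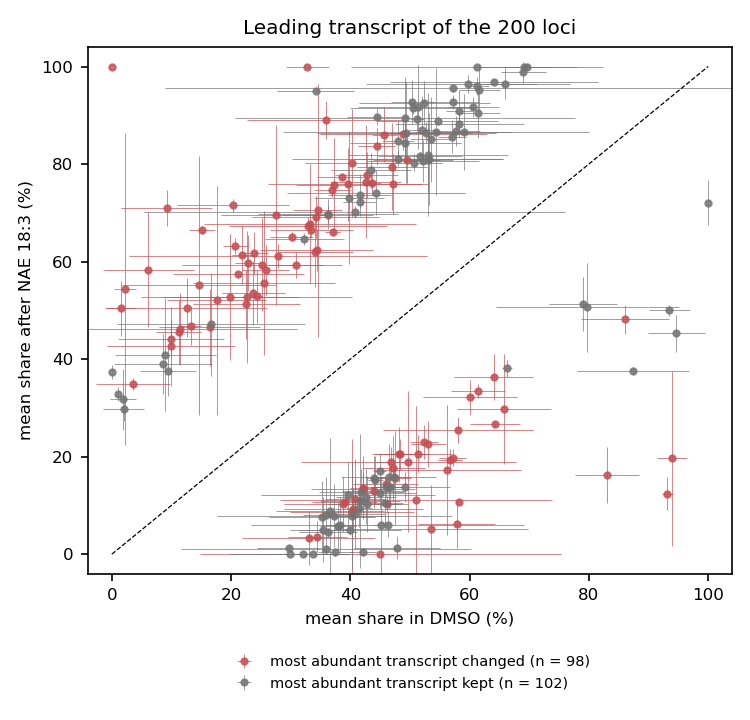
Mean share of the leading transcript in DMSO (x axis, %) and after NAE 18:3 (y axis, %) for the 200 loci, with error bars of 1 SD over 3 libraries and a dashed line of equal shares. The 98 red loci changed their most abundant transcript and the 102 grey loci kept it.

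Among the 200 were 5 genes from the lists of SR proteins, other splicing regulators and core spliceosome genes used here. The lists do not hold every splicing gene, so this is no full count. Products worded for RNA binding and splicing were 4 of the 200, or 2%, against 2.96% of the other eligible loci. Those 4 were RS31, RSZ22a, U2AF65A and GR-RBP2, so the wording misses SR30 and AFC2. SR30 (AT1G09140) encodes an SR protein related to the human splicing factor SRSF1. Its transcript AT1G09140.2 held 37.3%, 38.2% and 35.7% of the locus in the 3 DMSO libraries and 65.3%, 67.0% and 66.0% after NAE 18:3. The remainder was AT1G09140.1, so the 2 transcripts of this locus exchanged the lead in every library. The TAIR gene of SR30 is carried by 2 assembled loci, and the one with the higher mean FPKM is described. AT1G09140.2 stood at 17.3, 17.4 and 16.8 FPKM in the control and 49.3, 50.1 and 48.3 FPKM after NAE 18:3, while AT1G09140.1 stood at 29.1, 28.2 and 30.2 FPKM and 26.2, 24.7 and 24.9 FPKM. The shift therefore lay mostly in a higher level of AT1G09140.2, with a smaller drop of the other. In the RefSeq annotation of TAIR10.1 these transcripts use the same donor of a late intron and differ in its acceptor by 338 bases, which gives an intron of 604 bases in AT1G09140.2 and 942 bases in AT1G09140.1 and coding regions of 771 and 807 bases. The windows at these splice sites are shown because the whole difference between the transcripts rests on them. Each has 15 exon and 15 intron bases on the minus strand of chromosome 1, with the end of the intron in capitals, and they lie at chr1:2944154-2944183, chr1:2943550-2943579 and chr1:2943212-2943241 in this order.
SR30 shared donor: cagctctgtctcaagGTatgagtgttagat
SR30 acceptor of AT1G09140.2: ttgtttgttttctAGatctggctcactgct
SR30 acceptor of AT1G09140.1: ttggtcttgctgcAGgtcccaatcaagatc

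RS31 (AT3G61860), an SR protein whose splicing is known to respond to light in Arabidopsis, moved by 37.8 points. Its leading transcript held 21.8%, 23.5% and 26.4% in DMSO and 57.1%, 65.5% and 62.5% after NAE 18:3. The locus as a whole stood at 32.5 ± 1.30 FPKM and 35.8 ± 1.89 FPKM (SD, n = 3 each), so the transcripts changed places while the locus differed little. By limma on log2(FPKM + 1) with Benjamini-Hochberg adjustment the RS31 locus was called higher, with a log2 change of 0.134 and adjusted p of 0.036. The leading transcript stood at 6.78, 7.93 and 8.60 FPKM in the control and 21.6, 22.3 and 22.2 FPKM after NAE 18:3. Its partner stood at 24.4, 25.8 and 24 FPKM and 16.2, 11.7 and 13.3 FPKM, and neither transcript's groups overlapped. The table gives both assembled RS31 transcripts the label AT3G61860.1, so the structural difference between them cannot be read from it.

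U2AF65A (AT4G36690) encodes the large subunit of the factor that binds the polypyrimidine tract before the acceptor. A transcript labelled AT4G36690.3 held 23.6%, 24.7% and 25% in DMSO and 58.7%, 51.9% and 48.0% after NAE 18:3, and AT4G36690.1 held 47.2%, 44.0% and 44.2% and then 22.0%, 25.5% and 27.4%. RSZ22a (AT2G24590), an SR protein with a zinc knuckle, had a leading transcript at 31.5%, 32.1% and 44.9% in DMSO and 68.4%, 68.9% and 71.6% after NAE 18:3. That switch took place in a locus that stood at 48.0 ± 5.21 FPKM in the control and 22.3 ± 0.866 FPKM after NAE 18:3. AFC2 (AT4G24740), a LAMMER-type kinase of the family that phosphorylates SR proteins, had a leading transcript at 20.1%, 6.46% and 3.37% in DMSO and 42.4%, 41.7% and 48.5% after NAE 18:3. The AFC2 locus stood at 32.8 ± 1.48 and 33.6 ± 2.1 FPKM. As for SR30, it is the one with the higher mean FPKM of 2 loci that carry the TAIR gene.

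**Figure D2:**
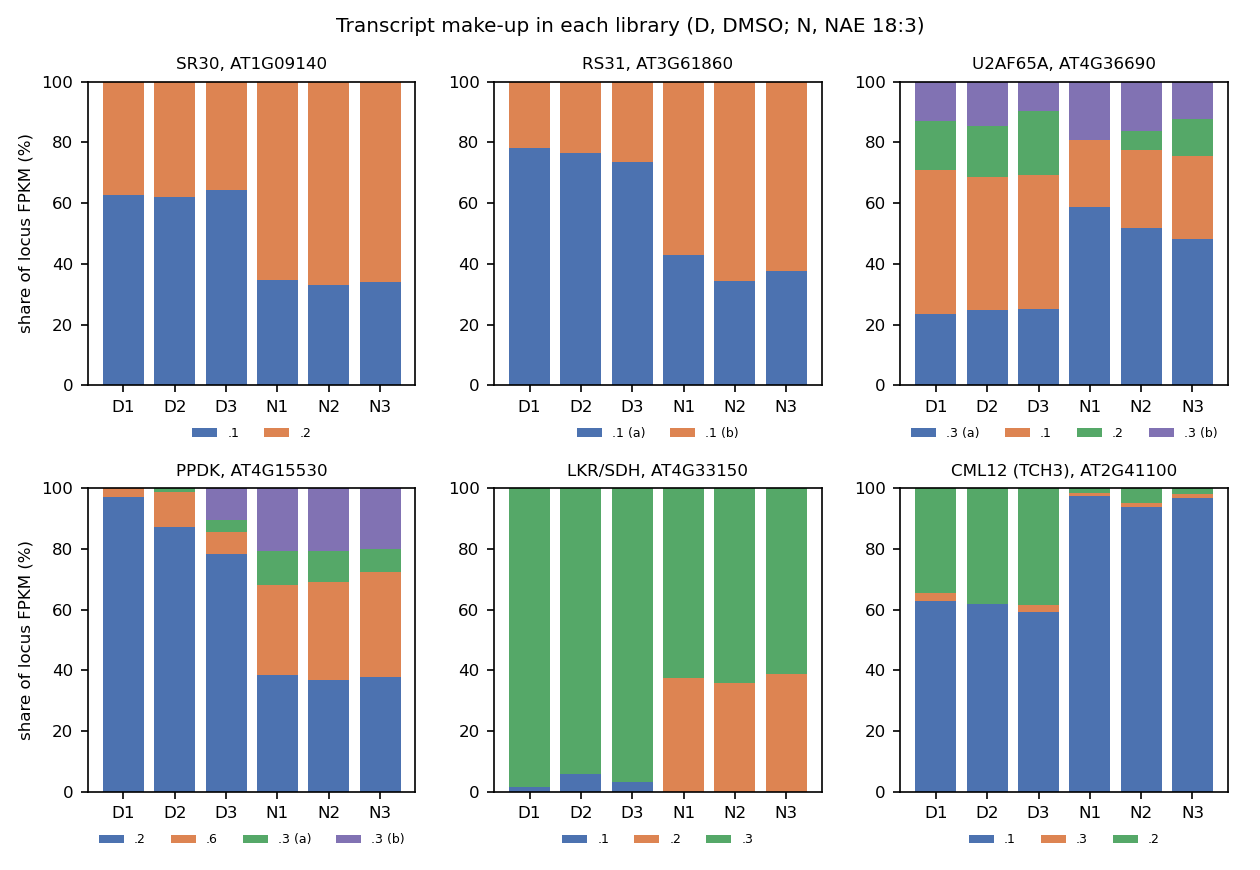
Share of the locus FPKM (y axis, %) held by each assembled transcript in the 3 DMSO libraries (D1 to D3) and the 3 NAE 18:3 libraries (N1 to N3) of 6 loci, with transcripts above 0.5% in at least 1 library drawn and letters separating transcripts that carry the same label. SR30 and RS31 exchange the lead between their transcripts, and LKR/SDH shows AT4G33150.2 above 0.5% in the NAE 18:3 libraries alone.

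Other genes of these pathways were counted beside them, where 48.1% of all eligible loci had non-overlapping shares and 4.78% were among the 200. Of 20 SR genes, 17 were eligible, 14 had a transcript with non-overlapping shares and 3 were among the 200, namely SR30, RS31 and RSZ22a. The eligible SR loci held from 2 (SR30) to 10 (SCL33) transcripts, while eligible loci outside the 200 had a median of 2. Loci with more transcripts had more chances of non-overlap, and the lists were made with earlier results of these data known. No excess is therefore read from the counts of these lists. By limma on log2(FPKM + 1) with Benjamini-Hochberg adjustment, 8 of the 20 SR loci were called higher in total FPKM and 10 lower, against 44.1% and 39.2% of all 18194 loci tested. Of 13 other splicing regulators, 10 were eligible, 6 had non-overlapping shares and AFC2 was a member. Of 13 core spliceosome and cap-binding genes, 9 were eligible, 6 had non-overlapping shares and U2AF65A was a member. Of 4 genes of nonsense-mediated decay, all were eligible, 2 had non-overlapping shares and none was a member. Of 8 genes with light- or sugar-dependent splicing, 7 were eligible, 6 had non-overlapping shares and 3 were members, again SR30, RS31 and U2AF65A. Of 14 clock genes, 10 were called higher and 2 lower in locus FPKM, 4 were eligible, all 4 had non-overlapping shares and TIC was a member.

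TIC (TIME FOR COFFEE, AT3G22380) encodes a nuclear regulator of the circadian clock. Its leading transcript held 42.8%, 27.5% and 45.7% in DMSO and 16.4%, 5.41% and 8.96% after NAE 18:3. A further RNA-binding protein gene, GR-RBP2 (AT4G13850), had a leading transcript at 43.4%, 70.1% and 35.7% in DMSO and 31.2%, 22.7% and 3.12% after NAE 18:3. Its nearest libraries lay 4.49 points apart, while the locus stood at 297 ± 11.4 FPKM in the control and 61.0 ± 4.47 FPKM after NAE 18:3.

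The largest switch was complete in the listed values. Its difference of 100 points was 81.8 points with 1 FPKM added to each transcript. In AT4G33890, annotated as a transcriptional regulator of the SAGA type, a transcript labelled AT4G33890.1 was listed at 0, 0 and 0.000144 FPKM in the 3 DMSO libraries and at 15.6, 15.3 and 15.3 FPKM in the NAE 18:3 libraries, where it held 100% of the locus. AT4G33890.2 held 42.8%, 89.8% and 90.9% in DMSO, a second transcript labelled AT4G33890.1 held the rest, and both were listed at 0 after NAE 18:3. The locus stood at 10.7 ± 1.21 FPKM and 15.4 ± 0.191 FPKM, close to the limit of 10 FPKM. EMB2001 (AT2G22870), a P-loop nucleotide triphosphatase gene, followed with a leading transcript at 94.1%, 92.9% and 92.3% in DMSO and 9.07%, 15.8% and 12.3% after NAE 18:3. Its partner carries the same label and held 5.87%, 0% and 7.71% and then 64.3%, 66.8% and 69.5%. In ECT8 (AT1G79270), a reader of N6-methyladenosine in mRNA, the leading transcript held 83.3%, 77.5% and 88.3% in DMSO and 10.0%, 17.6% and 21.3% after NAE 18:3. The ECT8 partner was listed at 0 in all DMSO libraries and stood at 25.7, 25.5 and 23.5 FPKM after NAE 18:3. STN8 (AT5G01920), a thylakoid kinase that phosphorylates photosystem II core proteins, had a leading transcript at 2.40%, 7.85% and 17.4% in DMSO and 68.8%, 75.2% and 69.0% after NAE 18:3. In all 4 loci the groups stood far apart on this measure, by which the loci were chosen.

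The remaining loci of the top 25 differed in how tightly the libraries of a group agreed. GSR2 (AT1G66200), a cytosolic glutamine synthetase, was the tightest of those described, with a leading transcript at 58.7%, 58.0% and 57.9% in DMSO and 11.2%, 10.5% and 10.6% after NAE 18:3. That transcript stood at 91.7 ± 2.19 FPKM in the control and 10.8 ± 0.172 FPKM after NAE 18:3, and its partner at 65.5 ± 2.43 and 89.2 ± 2.83 FPKM. BAG4 (AT3G51780), a co-chaperone, had 97.3%, 92.4% and 90.8% in DMSO and 50.6%, 48.7% and 50.8% after NAE 18:3. By contrast, PFD1 (AT2G07340), a prefoldin subunit that hands nascent proteins to a chaperonin, had 0.00695%, 3.42% and 3.08% in DMSO and 80.4%, 64.0% and 18.6% after NAE 18:3, where replicate 3 lay nearer to DMSO than to the other NAE 18:3 libraries. AAE14 (AT1G30520), an enzyme of phylloquinone synthesis, had 47.5%, 73.9% and 13.6% in DMSO and was listed at 0 in every NAE 18:3 library for its leading transcript. That difference of -45.0 points was -25.2 points with 1 FPKM added to each transcript. ACC1 (AT1G36160), the cytosolic acetyl-CoA carboxylase that supplies malonyl-CoA for fatty acid elongation, had 35.7%, 17.4% and 29.5% in DMSO and 48.4%, 77.5% and 82.5% after NAE 18:3. Its locus stood at 39.5 ± 0.246 and 37.0 ± 1.33 FPKM. The others of the top 25 were AT4G28830, AT5G19130, LRS1, TLP11, AT5G61330, AT4G37280, AT2G26190 and SFC, beside those described below, with differences from 42.3 to 74.4 points.

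**Figure D3:**
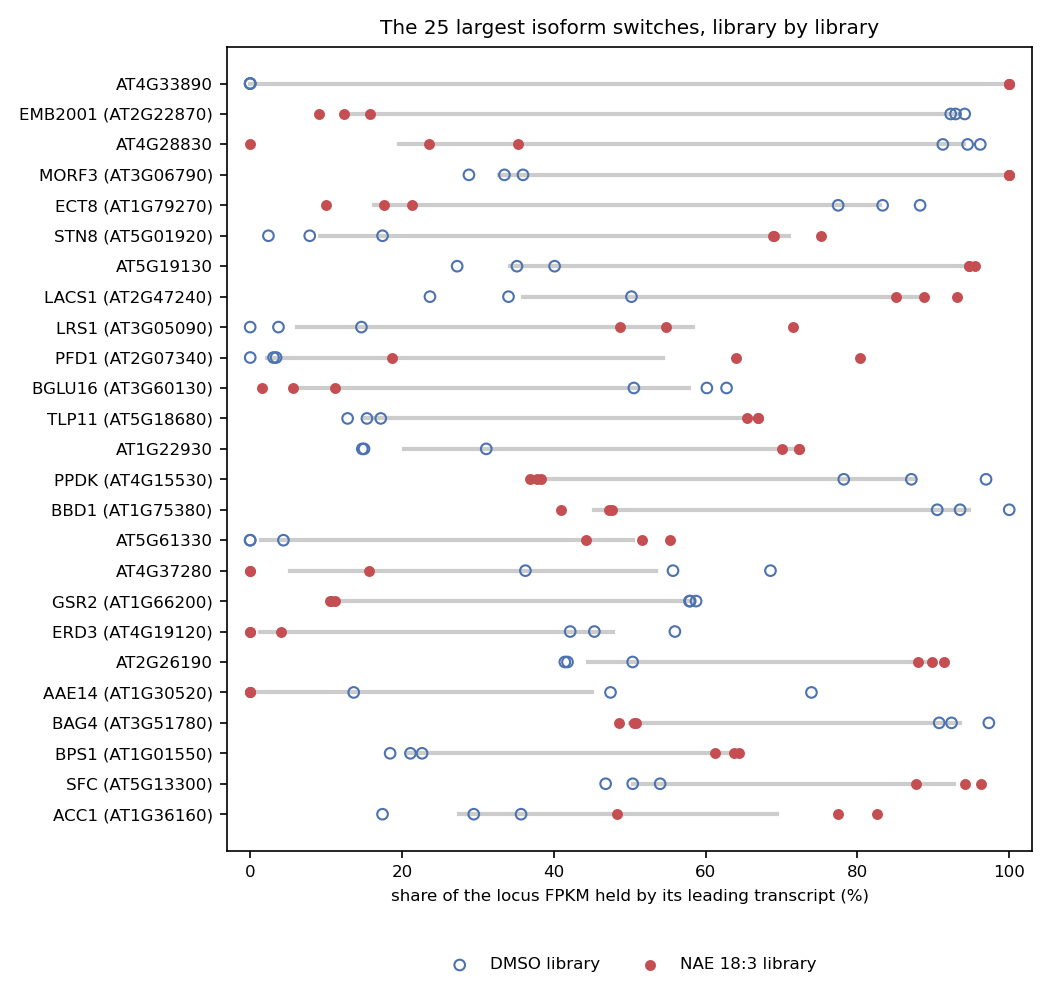
Share of the locus FPKM held by the leading transcript (x axis, %) in each library of the 25 loci with the largest differences, with open blue circles for DMSO, filled red circles for NAE 18:3 and a grey bar between the group means. The groups do not overlap in any of them, as the choice of loci requires, and in PFD1 NAE 18:3 replicate 3 at 18.6% stands away from the other 2.

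Where the leading transcript and its partner carry different TAIR labels, each used once in the locus, their annotated structures can be compared. This held for 34 of the 200 loci, or 17%, and for 34.4% of the other eligible loci. In 64.5% of the 200 the pair carried the same label, against 47.2% of the others. Of the 34 pairs, 9 differed by an alternative donor, 4 by an alternative acceptor, 1 by a skipped exon, 11 by a retained intron, 9 by introns beyond the ends of the other transcript and 2 in another way, and 2 of them were of 2 kinds. These kinds were read from introns alone. In most pairs the annotated starts differed as well, and the gaining transcript more often began upstream of the losing one. A kind is therefore not always the whole difference within a pair, and the part of starts in the switches was not tested. The intron was spliced in the gaining transcript in 5 of the 11 pairs with a retained intron and in the losing transcript in 6. In 17 pairs all differences in introns lay in the 5′ UTR. The coding region was the same in 18 pairs and different in 16. Donors of the introns that differed began with GT in 65 of 66 cases and acceptors ended with AG in 66 of 66.

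PPDK (AT4G15530) encodes pyruvate orthophosphate dikinase, which in Arabidopsis is known to be made in a chloroplast and a cytosolic form from different transcript starts. AT4G15530.2 held 96.9%, 87.1% and 78.2% in DMSO and 38.4%, 36.9% and 37.7% after NAE 18:3, while AT4G15530.6 held 3.05%, 11.6% and 7.16% and then 29.6%, 32.3% and 34.7%. The rest was held by transcripts labelled AT4G15530.3. The difference of -49.8 points for AT4G15530.2 was -23.6 points with 1 FPKM added to each transcript. In FPKM both transcripts of the pair stood higher after NAE 18:3, AT4G15530.2 at 12.2 ± 0.432 and then 56.8 ± 2.07, and AT4G15530.6 at 1.05 ± 0.649 and then 48.5 ± 3.49. The annotated coding region is 2892 bases in AT4G15530.6 and 2628 bases in AT4G15530.2, and the added exons lie upstream of the first exon of AT4G15530.2.

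AT4G33150, chosen after its values were seen, encodes lysine-ketoglutarate reductase/saccharopine dehydrogenase (LKR/SDH), the enzyme of the opening steps of lysine breakdown, and in Arabidopsis it is known to give a bifunctional and a shorter SDH-only mRNA. AT4G33150.2 held 0.00254%, 0.00245% and 0.00207% in DMSO and 37.3%, 36.0% and 38.9% after NAE 18:3. AT4G33150.3 held 98.4%, 94.1% and 96.8% and then 62.7%, 64.0% and 61.1%. In level, AT4G33150.2 went from under 0.001 FPKM in each DMSO library to 13.8, 12.5 and 13.9 FPKM, and AT4G33150.3 from 10.9, 10.9 and 13.3 FPKM to 23.2, 22.3 and 21.8 FPKM. The annotated coding regions are 3195 and 1449 bases, and AT4G33150.3 starts within the longer one.

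TCH3 (AT2G41100), also called CML12, is a calmodulin-like protein gene known for its induction by touch. AT2G41100.1 held 62.8%, 62.0% and 59.1% in DMSO and 97.3%, 93.8% and 96.8% after NAE 18:3, and AT2G41100.2 held 34.5%, 38.0% and 38.6% and then 1.81%, 5.03% and 1.81%. The change in make-up came with a locus at 57.6 ± 3.15 FPKM in the control and 795 ± 17.4 FPKM after NAE 18:3. AT2G41100.2 itself stood at 18.6, 22.3 and 23.2 FPKM and then 14.7, 39.4 and 14.3 FPKM, so its level overlapped between the groups. The annotated coding region is 975 bases in AT2G41100.1 and 600 bases in AT2G41100.2. Both introns that set AT2G41100.1 apart are 100 bases long and have the same donor window and the same acceptor window, base for base, so fragments that fall in these repeats may be split between the transcripts in an uncertain way. The windows are shown for that repeat, on the plus strand at chr2:17138192-17138221 and chr2:17138559-17138588 for the donor and at chr2:17138292-17138321 and chr2:17138659-17138688 for the acceptor.
TCH3 donor, both introns: acaagaatggtgatgGTatggttcatcaac
TCH3 acceptor, both introns: gattactttttgtAGgttccattacgaaaa

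**Figure D4:**
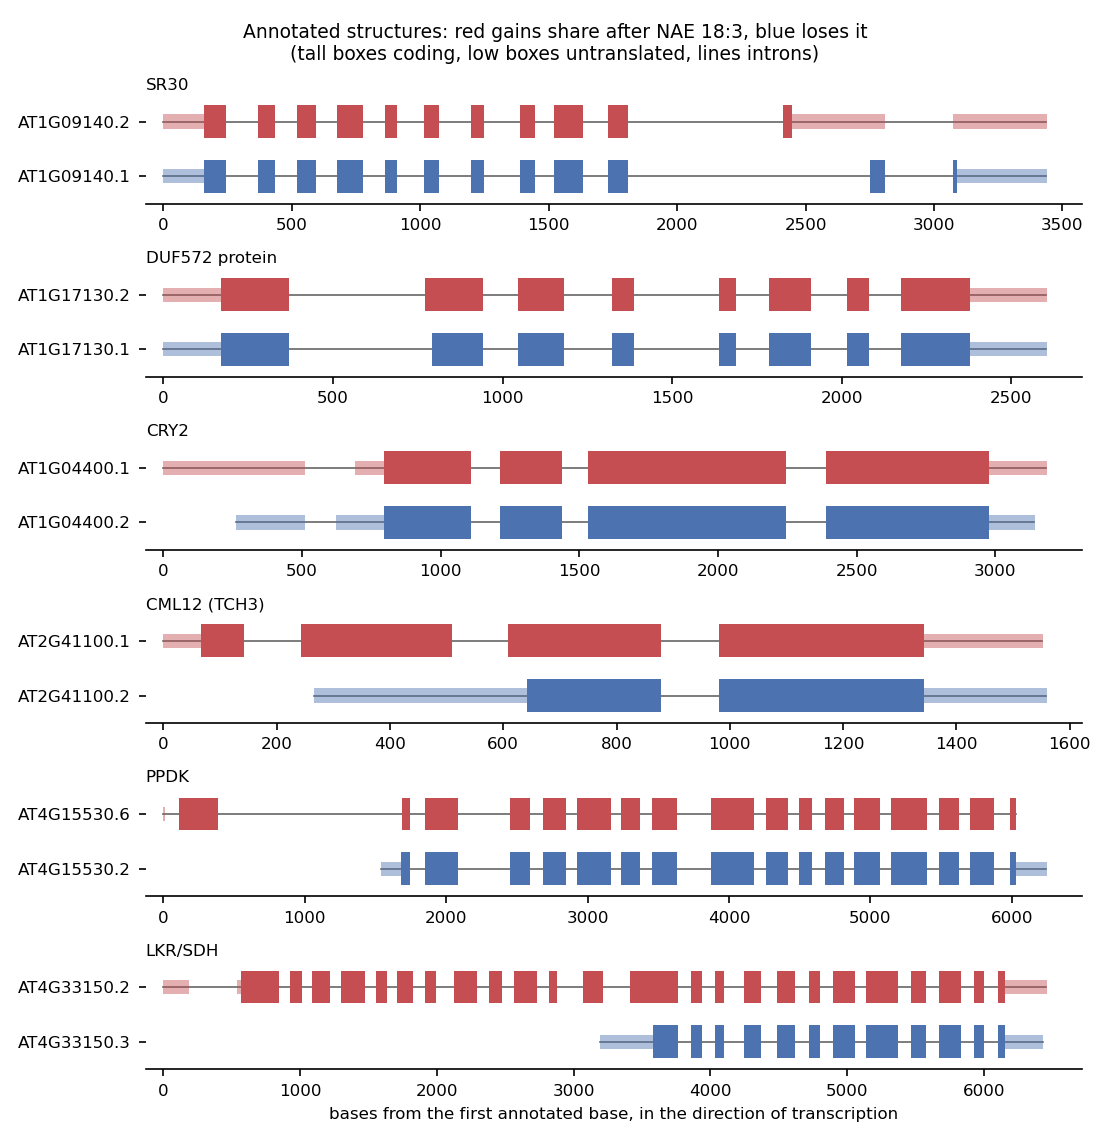
Annotated structures of the gaining (red) and losing (blue) transcript of 6 loci, drawn to scale per locus in bases from the first annotated base, with tall boxes for coding exons, low boxes for untranslated exons and lines for introns. SR30, AT1G17130 and CRY2 differ at an acceptor, and those of CRY2 also in their start and end. In TCH3, PPDK and LKR/SDH the transcript with the longer coding region begins upstream of the other.

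Small shifts of a splice site were also among the switches. MORF3 (AT3G06790) belongs to the organelle RNA editing factors. Its transcript AT3G06790.2 held 28.8%, 33.5% and 35.9% in DMSO and 100% in each NAE 18:3 library, where AT3G06790.1 was listed at 0 after 17.8, 18.7 and 17.1 FPKM in DMSO. The MORF3 locus stood at 26.6 ± 1.54 and 13.1 ± 0.882 FPKM. Both annotated transcripts splice an intron of 99 bases and have a coding region of 735 bases, but the intron is shifted by 4 bases and in AT3G06790.2 begins with GC, the exception among the 66 donors. The windows are given to show the shift, on the minus strand of chromosome 3 at chr3:2145349-2145378, chr3:2145345-2145374, chr3:2145250-2145279 and chr3:2145246-2145275 in this order.
MORF3 donor of AT3G06790.2: ttccgtccttggctgGCaagttccttttca
MORF3 donor of AT3G06790.1: gtccttggctggcaaGTtccttttcatttg
MORF3 acceptor of AT3G06790.2: atggttaaactatAGtgaggaagaggccaa
MORF3 acceptor of AT3G06790.1: ttaaactatagtgAGgaagaggccaagaag

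AT1G17130, a coiled-coil protein gene of the DUF572 family named here after its values were seen, has acceptors 21 bases apart, so that the coding region is 1017 bases in AT1G17130.2 and 996 bases in AT1G17130.1. AT1G17130.2 held 25.3%, 14.5% and 23.1% in DMSO and 52.1%, 51.8% and 42.3% after NAE 18:3. It stood at 5.97, 3.53 and 5.57 FPKM and then 11.8, 10.7 and 9.15 FPKM, while AT1G17130.1 stood at 17.6, 20.9 and 18.5 FPKM and then 10.9, 9.94 and 12.5 FPKM. The levels thus moved in opposite directions in a locus that stood at 24 ± 0.387 and 21.6 ± 1.0 FPKM. The acceptor windows, shown because they alone separate the 2 coding regions, lie on the plus strand at chr1:5854850-5854879 and chr1:5854871-5854900.
AT1G17130.2 acceptor: aatcaaattgttcAGaacttttcttttgat
AT1G17130.1 acceptor: tcttttgatgtgcAGacgtatctcgggatt

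BGLU16 (AT3G60130), a beta-glucosidase gene, was the pair with a skipped exon, of 59 bases. AT3G60130.1, which holds the exon, had 37.2%, 49.5% and 39.8% in DMSO and 93.3%, 98.4% and 88.8% after NAE 18:3. In LACS1 (AT2G47240), a long-chain acyl-CoA synthetase of cuticular wax synthesis, donors 458 bases apart change only the 5′ UTR. AT2G47240.1 held 34.0%, 50.2% and 23.7% in DMSO and 85.1%, 88.8% and 93.1% after NAE 18:3, in a locus at 22.7 ± 1.22 and 25.8 ± 0.208 FPKM. In ERD3 (AT4G19120), a methyltransferase gene known for its response to dehydration, the losing transcript AT4G19120.2 keeps a 5′ UTR intron of 909 bases. It held 56.0%, 42.2% and 45.3% in DMSO and 0.00473%, 4.05% and 0.0283% after NAE 18:3. BPS1 (BYPASS1, AT1G01550), which limits a root-derived signal that arrests shoots, went the other way. Its transcript AT1G01550.2, which keeps a 5′ UTR intron of 126 bases, held 21.1%, 18.4% and 22.6% in DMSO and 64.3%, 61.2% and 63.8% after NAE 18:3. AT1G22930, a T-complex protein 11 gene, had AT1G22930.1 at 14.8%, 31.1% and 15% and then 72.2%, 70.0% and 72.3%, with coding regions of 3396 bases in that transcript and 3063 in AT1G22930.2.

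CRY2 and PHYA were chosen as single genes after their values were seen and stand for no class. CRY2 (AT1G04400), a blue light receptor, has transcripts that differ at an acceptor in the 5′ UTR by 67 bases. AT1G04400.1 held 47.4%, 61.5% and 48.9% in DMSO and 84.0%, 87.5% and 87.9% after NAE 18:3, and stood at 14.0 ± 1.87 and 79.9 ± 3.27 FPKM. AT1G04400.2 stood at 12.7 ± 2.28 and 12.5 ± 1.92 FPKM, so that the difference of the locus lay in AT1G04400.1. PHYA (AT1G09570), the far-red light receptor phytochrome A, had AT1G09570.2 at 68.9%, 56.4% and 66.8% in DMSO and 40.5%, 37.1% and 31.3% after NAE 18:3, with the locus at 65.9 ± 1.73 and 67.9 ± 1.62 FPKM.

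Product classes were counted by words in the annotation alone, so each count covers only loci whose product name holds such a word and is no count of gene function. None of the 200 had a product worded for ribosome and translation, as a chaperone or as an unknown protein. Such products were 3.89%, 1.33% and 0.452% of the other eligible loci. Products named as kinases or phosphatases were 16 of the 200, or 8%, and 7.08% of the other eligible loci. Their 4 largest differences were those of STN8, PPDK, AT3G56370 and AT1G07990, where PPDK is a metabolic enzyme caught by the word. The leading transcript of AT3G56370, a leucine-rich repeat kinase gene, held 46.4%, 45.2% and 43.9% in DMSO and 0.00250%, 17.4% and 0.212% after NAE 18:3. That of AT1G07990, a SIT4 phosphatase-associated protein gene, held 40.6%, 34.9% and 35.5% and then 73.2%, 74.7% and 76.2%.

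Products worded for ubiquitin and proteolysis were 8 of the 200, or 4%, against 5.87% of the other eligible loci. RPN1A (AT2G20580), a regulatory subunit of the 26S proteasome, had a leading transcript at 37.0%, 32.8% and 31.5% in DMSO, and after NAE 18:3 it was at 0.0314% in replicate 1 and listed at 0 in the other 2. Its locus stood at 46.4 ± 0.995 and 42.1 ± 1.07 FPKM. UBA1 (AT2G30110), a ubiquitin-activating enzyme, had 52.8%, 47.1% and 41.1% and then 75.5%, 73.3% and 89.6%. In UBP8 (AT5G22030), a ubiquitin-specific protease, the values were 18.3%, 52.8% and 28.7% in DMSO and 77.3%, 54.0% and 71.9% after NAE 18:3, with nearest libraries little more than a point apart. LAP1 (AT2G24200), an aminopeptidase, had 29.8%, 37.6% and 36.2% in DMSO and 100%, 51.1% and 60.4% after NAE 18:3.

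Products worded as transporters, channels or carriers were 5 of the 200, or 2.5%, against 2.94% of the other eligible loci, and the wording misses members such as ABCB4, ABCB19, ABCC1, LAX1, HA2, ACA4 and ECA1. CNGC5 (AT5G57940), a cyclic nucleotide gated channel, had a leading transcript at 58.6%, 54.5% and 58.3% in DMSO and 21.8%, 19% and 18.6% after NAE 18:3, while its partner held 33.2%, 43.4% and 41.7% and then 69.2%, 73.2% and 71.0%. SUT2 (AT2G02860), of the sucrose transporter family, had 42.8%, 46.1% and 35.7% and then 73.9%, 77.8% and 69.1%. ABCG7 (AT2G01320), an ABC transporter gene, gained 28.0 points, and AT2G17500, of the auxin efflux carrier family, gained 40.5 points with nearest libraries at 24.3% in DMSO and 25.7% after NAE 18:3. Products worded for the chloroplast were 4 of the 200, or 2%, against 1.66% of the other eligible loci, with MORF3 described above. TOC34 (AT5G05000), a receptor of the chloroplast protein import machinery, had 87.1%, 62.1% and 90.0% and then 47.2%, 60.9% and 43.7%. KAC1 (AT5G10470), a kinesin-like protein of chloroplast movement, had 34.3%, 45.0% and 37.8% and then 10.5%, 12.1% and 9.65%. WEB1 (AT2G26570), also of chloroplast movement, had 30.3%, 46.9% and 32.4% and then 0.00167%, 0.639% and 26.2%. Products worded as transcription factors or zinc finger proteins were 4 of the 200, or 2%, against 4.34% of the other eligible loci, and the wording misses the members FHY3, ARF6 and BES1. Of the 4, RSZ22a is an SR protein caught by the wording, and the leading transcripts of AT4G17900, a PLATZ factor, and ZFN3 (AT5G16540) gained 40.4 and 28.4 points while that of AT4G14920, a PHD finger protein gene, lost 29.3 points, or 19.2 points with 1 FPKM added to each transcript.

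Switches occurred in loci whose total level differed widely between groups and in loci where it did not. By limma with Benjamini-Hochberg adjusted p under 0.05, 173 of the 200 loci were called changed in locus FPKM, 122 higher and 51 lower, against 83.2% of all loci tested and 85.0% of the eligible loci. Of all calls among the 200, 70.5% were higher, but the share was 55.9% after quantile normalization and 51.5% when libraries were scaled to their upper quartiles. The median log2 change was 0.35 for the 200, 0.24 for the eligible loci and 0.06 for all loci tested, and with upper-quartile scaling 0.01 for the 200 and -0.25 for all loci. In 105 of the 200, or 52.5%, the locus stayed within 1.5-fold, as in 52.0% of the other eligible loci. A transcript was called higher and another lower in 121 of the 200, against 9.89% of the eligible loci, and 64.0% of the 27052 transcripts tested were called changed. For the leading transcript and its partner, 117 of the 197 pairs tested were called in opposite directions, in 49 the gaining transcript alone was called, higher, in 16 the losing transcript alone, lower, in 8 both were higher and in 5 both were lower. The shares chose these loci from the same libraries, so nothing is read from these counts.

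The largest rises of locus FPKM among the 200 were those of BBD1, TCH3, AT2G30600, AT5G19130 and PPDK. BBD1 (AT1G75380), a nuclease of basal defense, stood at 11.1 ± 0.580 and 204 ± 3.91 FPKM. Its leading transcript held 100%, 90.5% and 93.5% in DMSO and 41.0%, 47.2% and 47.7% after NAE 18:3, a difference of -49.4 points that was -31.3 points with 1 FPKM added to each transcript. The level of that transcript stood at 10.5 ± 0.754 FPKM in the control and 92.3 ± 6.09 FPKM after NAE 18:3. The partner of BBD1 was at most 0.00102 FPKM in DMSO and stood at 97.4, 73.9 and 82.0 FPKM after NAE 18:3. AT5G19130, a GPI transamidase component gene, stood at 11.5 ± 0.236 and 130 ± 2.39 FPKM, with a leading transcript at 27.3%, 35.1% and 40.1% and then 95.5%, 94.8% and 94.7%. AT2G30600, a BTB/POZ protein gene, stood at 24.5 ± 1.01 and 287 ± 1.83 FPKM.

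The largest drops of locus FPKM were those of AT5G41670, GR-RBP2, AT3G20390, PYK10 and PHS1. AT3G20390, an endoribonuclease L-PSP family gene, stood at 225 ± 5.77 and 91.2 ± 2.79 FPKM. A transcript that held 0.900%, 0.931% and 1.03% of it in DMSO held 32.5%, 34.5% and 31.7% after NAE 18:3. In level that transcript stood at 1.96, 2.11 and 2.35 FPKM and then 30.4, 30.4 and 29.1 FPKM, while its partner stood at 222 ± 5.59 and 61.2 ± 3.04 FPKM, so the transcripts moved against each other by more than their spread. AT5G41670, a 6-phosphogluconate dehydrogenase gene, stood at 173 ± 4.61 and 32.7 ± 1.84 FPKM, with a leading transcript at 15%, 13.3% and 11.6% and then 51.3%, 43.6% and 45.7%. PYK10 (AT3G09260), the beta-glucosidase of root endoplasmic reticulum bodies, stood at 2750.4 ± 52.4 and 1141 ± 13.5 FPKM, with a leading transcript at 46.1%, 46.9% and 47.2% and then 9.25%, 17% and 15.1%. The 5 root genes summed to 108 to 122 FPKM in DMSO and 33.7 to 37.5 FPKM after NAE 18:3, and their part in the PYK10 values was not tested. PHS1 (AT3G29320), a plastid alpha-glucan phosphorylase, stood at 133 ± 3.15 and 55.9 ± 0.364 FPKM, with a leading transcript at 55.8%, 59.3% and 59.7% and then 87.1%, 95.5% and 90.1%.

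The 5 loci with the smallest change in total were AT2G12400, ECA1, AT1G69800, AT4G14920 and ACA1. ECA1 (AT1G07810), a calcium pump of the endoplasmic reticulum, stood at 19.4 ± 1.99 and 19.5 ± 1.65 FPKM while its leading transcript went from 49.8%, 52.1% and 54.1% to 93.0%, 79.2% and 88.7%. AT2G12400, annotated as a plasma membrane fusion protein, stood at 15.6 ± 1.22 and 15.6 ± 0.0556 FPKM, with a leading transcript at 59.9%, 56.8% and 65.2% and then 90.5%, 90.6% and 94.1%. AT1G69800, a CBS domain protein gene, and ACA1 (AT3G52720), an alpha carbonic anhydrase, had leading transcripts that gained 40.1 and 33.2 points in loci at 10.7 and 10.5 FPKM and at 14.5 and 14.6 FPKM. In none of these 5 was the locus called changed.

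**Figure D5:**
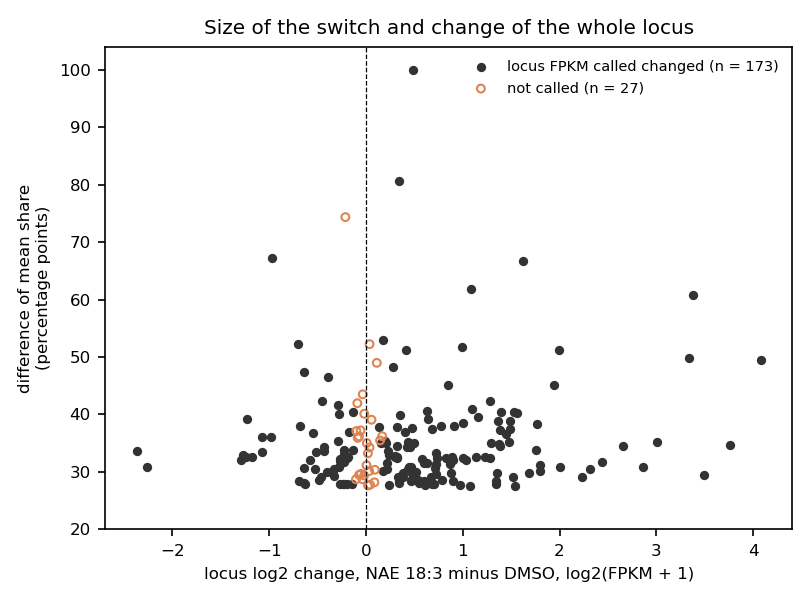
Difference of mean share of the leading transcript (y axis, percentage points, starting at 20) against the log2 change of the whole locus, NAE 18:3 minus DMSO (x axis, log2(FPKM + 1)), for the 200 loci. Filled points are the 173 loci called changed in total FPKM by limma and open points the 27 that were not, and large switches appear on both sides of 0 and near it.

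Gene length and exon number, which the choice did not use, were set beside those of the 3984 other eligible loci as a description. The 200 had a median gene length of 3952 bp against 2760 bp and a median of 10 against 7 exons in the annotated transcript with the most. Transcript number and FPKM had limits of at least 2 transcripts and at least 10 FPKM, which the other eligible loci met as well. The largest difference over all transcripts of a locus was taken, so loci with more transcripts had more chances. Whether gene length and exon number follow transcript number was not tested. Exactly 2 transcripts were assembled in 26.5% of the 200 and in 51.0% of the others, and the mean FPKM of the lower group had a median of 17.5 in the 200 and 20.9 in the others. The 200 lay on all 5 nuclear chromosomes, with 49, 39, 43, 27 and 42 loci on chromosomes 1 to 5.

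The loci were also chosen again without 1 library, and the share in that library was set against the 3 libraries of the other group. When 200 loci were chosen from 5 libraries, the left-out library's share lay beyond all 3 libraries of the other group, on the side given by the remaining libraries, in 183, 181 and 183 loci for DMSO replicates 1, 2 and 3 and in 189, 190 and 193 for NAE 18:3 replicates 1, 2 and 3. That is 90.5% to 96.5%, against 76.8% to 85.6% of the other loci with non-overlapping shares in the same 5 libraries. The 3 libraries of the other group took part in each choice, and the ranking favours wide differences, so nothing is read from this contrast. Of the 200 so chosen, 153 to 175 were among the 200 described here. In 7 of the 200 the difference moved by over 1.5 times when 1 library was left out. Its sign could not change, because the shares of each member do not overlap between groups. SPS1 (AT1G78510) went from 38.4 to 10.5 points without DMSO replicate 2 and AT2G30600 from 29.5 to 9.11 points without DMSO replicate 3, and these were 13.1 and 10.98 points with group medians. GH3.17 (AT1G28130) went from 40.4 to 24.1 points and GC5 (AT1G79830) from 33.3 to 19.3 points without DMSO replicate 1, and MPK8 (AT1G18150) from 32.3 to 17.7 points without DMSO replicate 3. LAP1 went from 36.0 to 21.2 points without NAE 18:3 replicate 1 and SFH3 (AT2G21540) from 34.5 to 21.4 points without NAE 18:3 replicate 3. Just inside the limit of 200 stood TAF2, WEB1 and PBL1 with differences of 27.6, 27.6 and 27.5 points in size, where that of TAF2 was -14.2 points with 1 FPKM added to each transcript, and just outside it KT2, AT2G21380 and FYPP3 with 27.4 points each.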

How the data were processed

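The authors' deposited table gives FPKM per assembled transcript and per locus. Per the submitters' processing notes it was made with TopHat, Cufflinks and Cuffdiff on TAIR9, and settings are not given in the sources used here. For 32423 of 32424 loci the transcripts summed to the locus within a relative tolerance of 0.001, and 4 merged columns were not used. Whole fragments could not be recovered, so no count model was run. Shares were computed per library and are not moved by library-wide scaling. Loci and transcripts with a mean of at least 1 FPKM were tested with limma 3.58.1 (R 4.3.3) on log2(FPKM + 1) with a mean-variance trend. The fit was tested on simulated data in which few features changed, which says nothing about the scaling of these libraries. Errors are SD over 3 libraries and cover counting and biological spread together. Transcript structures and splice-site windows came from RefSeq for TAIR10.1 through the TAIR transcript labels, and all coordinates are those of TAIR10.1. The assembly's own exons were not used here, so an assembled transcript may differ from the model of its label. The members, gene lists and rules were chosen with earlier results of these data known. Genes were named by rule: the 25 largest differences, members of the lists, the 4 largest per product class, the extremes and smallest of locus change, and the edge of the 200, with the loci that 1 library moved by over 1.5 times and a few single genes chosen after their values were seen.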

Additional observations from a re-analysis of the deposited data

How the results depend on the processing

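Of the 200 loci, 92 were also chosen with a limit of 5 FPKM in place of 10 and 88 with a limit of 20 FPKM, which left 1061 loci with non-overlapping shares against 2013. The other 112 of the 200 had a lower group mean under 20 FPKM, so all that could pass that limit were kept. The choice kept 153 to 175 of the 200 without 1 library, 159 when ranked by the summed absolute differences over all transcripts of a locus, 174 with group medians, 200 with summed transcripts as the denominator, and 199 when loci with further models without a TAIR gene were kept, an alternative chosen after seeing the data. Without 1 library, 2242 to 2449 loci had non-overlapping shares. None of the 200 differences changed sign with 1 FPKM added to each transcript. With group medians or without 1 library the sign could not change, because the shares of each member do not overlap between groups. Summed transcripts as the denominator match the locus value, so that setting could not change it either. With 1 FPKM added, 10 of the 200 moved by over 1.5 times, and 18 of the 60 loci named by rule moved by more than their spread. Members called lower in locus FPKM numbered 81 with upper-quartile scaling against 51, and transcripts called lower 4561 with a mean of at least 5 FPKM against 7572, where fewer were tested. The cause of the count with upper-quartile scaling was not tested. Leaving out 1 library gave 166 to 172 members called changed. The replicate numbers do not pair the libraries, with correlations of -0.0133, -0.00872 and 0.0182 for libraries of the same number, and a replicate block gave 172 members called changed against 173. Absolute depth is unknown, so no counting interval is given for a share.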
